A study of Homo sapiens with 12 samples.

Results

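The genes described here are long non-coding RNA (lncRNA) genes with a signal on the arrays, in Ewing sarcoma cells treated with mithramycin. They are genes whose platform symbol begins with LINC and a number or with SNHG, or ends in -AS1, -AS2, -IT1 or -DT, with HOX symbols left out. Each was represented by its probe set with the highest mean over the 12 arrays and kept if the mean of any of the 4 groups reached 6 on the log2 scale. This left 201 genes of the 1830 with such a symbol, out of 19775 genes measured with a single symbol. Of the 201, 106 are named as antisense (-AS1 or -AS2), 52 as intergenic (LINC), 36 as divergent transcripts (-DT), 5 as small nucleolar RNA host genes (SNHG) and 2 as intronic transcripts (-IT1). The genes were thus chosen by their array levels, mithramycin groups included, and the highest group means nearest the limit were 6.002 for PDCD4-AS1, 6.006 for PPP1R3B-DT and 6.011 for MORC2-AS1 just inside, against 5.987 for LARGE-AS1, 5.982 for PELP1-DT and 5.98 for LINC02806 just outside.

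The arrays carried RNA from TC71 and TC32, established Ewing sarcoma lines, and each line was exposed to 100 nM mithramycin or to its solvent for 6 h. The 4 groups were TC71 with mithramycin, TC71 with solvent (control), TC32 with mithramycin and TC32 with solvent, each with 3 biological replicates and 1 array per replicate. Mithramycin was the only agent named, the labels name no genetic change in either line, and a single dose and time were measured. Values are RMA log2 signals, a level per probe set relative to the rest of the array, and a difference of 1 is a 2-fold change. Fewer cells and less RNA per cell cannot be told apart in such bulk RNA.

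lncRNAs are transcripts without a long open reading frame, and many are spliced and polyadenylated like mRNAs. Genes with a DT symbol start beside the promoter of a coding gene and run away from it, and genes with an AS symbol are named as antisense to the gene in their symbol, which they may overlap or only adjoin. SNHG genes carry small nucleolar RNAs (snoRNAs), which guide the chemical modification of ribosomal RNA, inside their introns, and several of their spliced transcripts are short-lived because nonsense-mediated decay (NMD) removes them. Mithramycin binds GC-rich DNA in the minor groove and is known for displacing Sp-family factors from their GGGCGG motif. Ewing sarcoma cells depend on the fusion of EWSR1 with the ETS factor FLI1.

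Within groups, the lowest correlation between any pair of arrays over all probe sets was 0.9948. The Ewing marker CD99 averaged 11.01 in TC71 controls and 12.09 in TC32 controls, and all 7 measured genes of a list of 8 such markers had group means of at least 6. With mithramycin 4 of the 7 fell and 0 rose in the average of both lines, beside 33.2% and 37.6% of the 7235 genes with group means of at least 6: FLI1 by 0.48, NKX2-2 by 0.24, STEAP1 by 0.20 and PRKCB by 0.17 (limma). The lines differed: NKX2-2 rose by 0.17 in TC71 (adjusted p = 0.0395, limma) and fell by 0.64 in TC32. The fall of FLI1 passed the test in TC32 only, and those of STEAP1 and PRKCB in TC71 only. The leukocyte marker PTPRC (2.36 in TC71 controls, 2.34 in TC32 controls) and the epithelial marker EPCAM (2.79 and 2.33 in the same order) were near the bottom of the scale. The fibroblast genes DCN and COL1A1 were at 8.15 and 7.26 in TC71 controls, against 4.14 and 6.07 in TC32 controls. Of 6 markers of other cell types, 1 rose in that average, the keratin gene KRT19 (0.25, at group means of 3.0 to 3.4), and DCN rose by 0.44 in TC71 (adjusted p = 0.0284, limma); their part in the lncRNA results was not tested. The labels give no scan time or hybridisation batch.

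Promoters of 3 SNHG genes and of 3 lncRNA genes named among the largest rises are printed, the rising genes as examples with and without the motif. Each line runs 5′ to 3′ from 250 bases before the RefSeq start to 50 after it on GRCh38.p14, and capitals mark GGGCGG or its reverse complement CCGCCC. SNHG17 (chr20:38435279-38435578, minus strand) and SNHG32 (chr6:31834666-31834965, plus strand) hold no copy, and SNHG19 (chr16:2155309-2155608, minus strand) holds 1. DPH5-DT (chr1:101025596-101025895, plus strand) holds 0 copies, PAXIP1-DT (chr7:155003183-155003482, plus strand) holds 2 and ZNF143-AS1 (chr11:9460649-9460948, minus strand) holds 2. Of the other antisense genes with the largest rises, PAX8-AS1 holds 1 copy and MAPKAPK5-AS1 and GABPB1-AS1 hold 0.
SNHG17: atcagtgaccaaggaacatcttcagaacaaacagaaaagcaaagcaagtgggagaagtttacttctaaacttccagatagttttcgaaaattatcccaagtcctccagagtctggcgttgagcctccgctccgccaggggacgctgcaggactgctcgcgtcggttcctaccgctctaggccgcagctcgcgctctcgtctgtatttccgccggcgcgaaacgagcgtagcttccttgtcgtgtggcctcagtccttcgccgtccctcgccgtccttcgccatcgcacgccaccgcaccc
SNHG32: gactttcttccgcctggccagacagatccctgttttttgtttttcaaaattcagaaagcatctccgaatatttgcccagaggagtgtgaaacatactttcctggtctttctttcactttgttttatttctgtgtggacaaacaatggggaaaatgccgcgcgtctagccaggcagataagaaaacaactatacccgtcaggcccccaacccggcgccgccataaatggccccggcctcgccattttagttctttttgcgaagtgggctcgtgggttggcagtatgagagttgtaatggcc
SNHG19: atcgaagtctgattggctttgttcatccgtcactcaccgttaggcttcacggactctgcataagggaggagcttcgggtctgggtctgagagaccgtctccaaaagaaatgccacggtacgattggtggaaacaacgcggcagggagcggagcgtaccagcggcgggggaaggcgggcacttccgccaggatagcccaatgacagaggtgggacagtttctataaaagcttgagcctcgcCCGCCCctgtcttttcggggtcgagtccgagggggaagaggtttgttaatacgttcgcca
DPH5-DT: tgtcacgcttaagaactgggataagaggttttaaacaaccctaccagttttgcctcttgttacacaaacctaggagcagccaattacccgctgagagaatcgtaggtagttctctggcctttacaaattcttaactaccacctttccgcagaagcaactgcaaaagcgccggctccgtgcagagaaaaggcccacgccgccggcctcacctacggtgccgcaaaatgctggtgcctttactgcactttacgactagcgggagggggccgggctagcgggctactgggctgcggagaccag
PAXIP1-DT: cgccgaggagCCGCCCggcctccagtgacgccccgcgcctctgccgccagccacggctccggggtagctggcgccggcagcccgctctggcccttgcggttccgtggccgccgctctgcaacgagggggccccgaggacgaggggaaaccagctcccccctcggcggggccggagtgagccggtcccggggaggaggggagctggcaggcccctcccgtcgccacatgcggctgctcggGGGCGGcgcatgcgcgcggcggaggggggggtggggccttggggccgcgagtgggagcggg
ZNF143-AS1: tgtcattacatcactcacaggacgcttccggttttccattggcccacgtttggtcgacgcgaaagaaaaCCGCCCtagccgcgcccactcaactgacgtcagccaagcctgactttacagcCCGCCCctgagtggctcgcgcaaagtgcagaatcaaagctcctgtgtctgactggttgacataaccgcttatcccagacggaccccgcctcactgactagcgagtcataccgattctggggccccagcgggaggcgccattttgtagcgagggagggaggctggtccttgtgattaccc
The RefSeq starts of SNHG19 and SNHG32 lie at a C followed by other pyrimidines, in a run of 6 in each, the start found in many genes of the translation machinery. The RefSeq start of SNHG17 is an A.

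All 4 group means were at least 6 for 68 of the 201 genes, and these entered the test. The other 133 reached 6 in some groups only, so a gene among them may have been kept because it differed between groups, and they are given below by values without a test. The 68 had means over the 12 arrays between 6.26 (SLC25A25-AS1) and 10.38 (SNHG32).

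More of the 68 lncRNA genes were higher than lower with mithramycin. In TC71, 32 rose and 6 fell at an adjusted p under 0.05 (limma with Benjamini-Hochberg adjustment over all 19775 genes), where 27.5% of the 7235 genes with all 4 means at 6 or more rose and 26.2% fell. In TC32, 34 of the 68 rose and 12 fell, beside 32.2% and 31.4% of those 7235 genes. In the average of the changes in both lines (the line average), 44 rose and 12 fell, that is 64.7% and 17.6%, beside 37.6% and 33.2% of the 7235. Their median change was 0.22 in that average, beside 0.03 for the 7235 genes. No test of the 68 as a set was made. Of 31 called genes with more than 1 probe set, 7 had another set called the other way, among them the falls of LINC01128 (-0.25, another set 1.27) and LINC00667 (-0.20, another set 0.62), which were picked after their values were seen. Signals of the 3′ probes of beta-actin exceeded those of its 5′ probes, which reads RNA integrity, by 0.795 to 0.993 on treated TC71 arrays and 1.08 to 2.0 on TC71 controls, and 0.51 to 0.675 on treated TC32 arrays and 0.672 to 0.735 on TC32 controls. TC71 control replicate 1 stood apart from the other TC71 controls at 2.0. With this gap as a covariate 23 of the 68 rose and 3 fell in TC71, beside 16.8% and 19.9% of the 7235 genes. Every treated TC71 array had a smaller gap than every TC71 control, so this covariate cannot separate RNA integrity from mithramycin in that line. Without TC71 control replicate 1, 28 rose and 5 fell, beside 23.5% and 24%.

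The same skew is seen in the single arrays. All mithramycin arrays lay above all control arrays for 44 of the 68 in TC71 and for 32 in TC32, beside 40.2% and 37.3% of the 7235 genes. They lay below all controls for 8 in TC71 and 12 in TC32, beside 33.5% and 33.8%. Few changes reached 1: in TC71 1 gene of the 68 rose by at least 1 and 0 fell by as much. In TC32 1 gene rose and 2 fell by as much. Among the 7235 genes, 21 rose and 168 fell by at least 1 in TC71, and 30 rose and 251 fell in TC32. Changes of that size were thus few among the 7235 genes too.

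RMA forces a common scale on the arrays, and the split depends on it. The median of all 19775 genes was 0.077 in the line average. When the arrays were centred on 11 housekeeping genes, 5 of which rose (POLR2A, GUSB, TBP and YWHAZ among them) and 1 of which fell, that median became -0.075. Under this centring 20 lncRNA genes rose and 13 fell in TC71, beside 10% and 41.8% of the 7235 genes. In TC32 24 rose and 16 fell, beside 14.6% and 44%, and in the line average 27 rose and 17 fell, beside 16.6% and 50.6%. With centring on the hybridisation controls, 36 rose and 2 fell in TC71, beside 26.7% and 15.8%, and 18 rose and 13 fell in TC32, beside 7.08% and 34.9%. The median of the 68 in the line average was 0.073 with housekeeping centring, 0.19 with hybridisation centring and 0.339 with quantile normalization run again, beside -0.121, -0.004 and 0.075 for the 7235 genes.

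**Figure D1:**
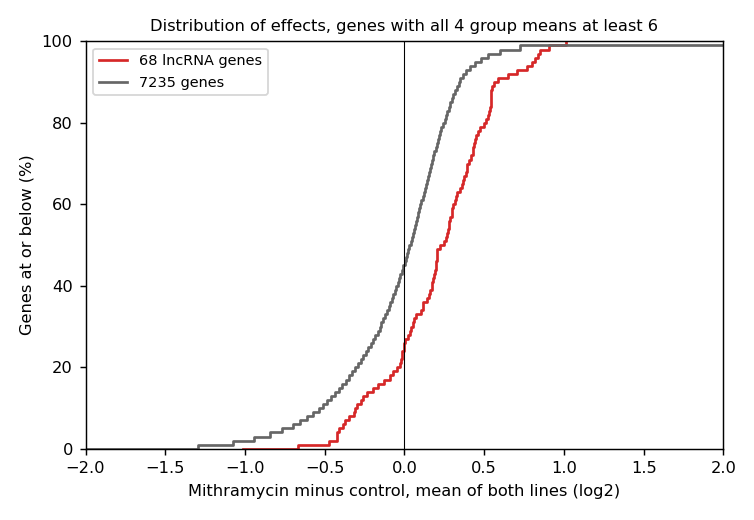
Cumulative share of genes (y axis, percent) at or below each change with mithramycin (x axis, log2, line average) for the 68 lncRNA genes in red and for the 7235 genes with all 4 group means of at least 6 in grey. The curve of the lncRNA genes lies to the right, with medians of 0.225 and 0.03.

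All 3 SNHG genes of the 68 fell in the line average, although SNHG19 rose in TC71. SNHG17 had 8.02, 7.92 and 8.0 in mithramycin-treated TC71 cells, against 8.89, 8.80 and 8.90 in TC71 controls. Its TC32 values were 7.76, 7.42 and 7.46 with mithramycin, against 8.75, 8.59 and 8.74 in controls. The groups did not overlap in either line, and SNHG17 fell by 0.88 ± 0.09 in TC71 (adjusted p = 6.71e-06) and by 1.15 ± 0.09 in TC32 (adjusted p = 5.1e-07; limma, SE, n = 3 arrays per group). It was the largest fall among the 68, and its other probe set fell by 0.83 and 0.96.

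SNHG32, the brightest of the 68, had 10.25, 10.22 and 10.25 with mithramycin in TC71, against 10.61, 10.49 and 10.61 in controls. In TC32 it had 10.06, 9.94 and 10.04 with mithramycin, against 10.63, 10.68 and 10.76 in controls. It fell in both lines, by 0.33 ± 0.06 in TC71 (adjusted p = 8.92e-04) and by 0.67 ± 0.06 in TC32 (adjusted p = 1.82e-06; limma).

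SNHG19 moved in opposite directions in the lines. In TC71 it had 10.28, 10.29 and 10.28 with mithramycin, against 10.11, 9.98 and 10.06 in controls, a rise of 0.23 ± 0.06 (adjusted p = 0.0139, limma). Its TC32 values were 8.48, 8.48 and 8.38 with mithramycin, against 9.54, 9.32 and 9.50 in controls, so that it fell by 1.01 ± 0.06 (adjusted p = 1.4e-07, limma). No array of the treated group overlapped its controls in either line, and the only probe set of this gene ends in _x_at, the mark of probes that can match other transcripts. With centring on housekeeping genes the TC71 value was 0.08 and did not pass the test (adjusted p = 0.428, limma), while without TC71 control replicate 2 it was 0.2 (adjusted p = 0.0593).

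The remaining pair of SNHG genes reached 6 in some groups only. SNHG4 had 6.61, 6.56 and 6.58 with mithramycin in TC71, against 6.18, 6.44 and 6.50 in controls, and 5.16, 5.18 and 5.23 with mithramycin in TC32, against 6.23, 6.28 and 6.24 in controls. Its differences of 0.21 in TC71 and -1.06 in TC32 have the same signs as those of SNHG19. SNHG33 was at 7.2, 7.22 and 7.33 with mithramycin in TC71, against 6.87, 6.77 and 6.79 in controls, and all its TC32 arrays lay between 3.98 and 4.31. EPB41L4A-AS1, an antisense gene that hosts a snoRNA in an intron, had 7.93, 7.87 and 7.97 with mithramycin in TC71, against 8.06, 8.03 and 8.11 in controls. In TC32 it had 7.71, 7.78 and 7.78 with mithramycin, against 8.33, 8.53 and 8.48 in controls, and fell by 0.69 ± 0.06 (adjusted p = 2.43e-06, limma). Its TC71 value of -0.15 did not pass the test (adjusted p = 0.0855).

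Of 16 listed coding genes that host snoRNAs, 10 were measured, and 2 rose and 3 fell in the line average, beside 32.9% and 20.9% of all 19775 genes. WDR43, a factor of small ribosomal subunit assembly, fell by 0.77 ± 0.06 (adjusted p = 6.99e-07, limma) and the RAN exchange factor RCC1 fell by 0.49 ± 0.08. PRPF39, a splicing factor, rose by 0.62 ± 0.05, and EIF4A2, an RNA helicase of translation initiation, rose by 0.39 ± 0.06 on a probe set whose 4 group means were only 2.5 to 3.31. Of 8 core proteins of snoRNA particles, 6 were measured, and SNU13 (0.16), NHP2 (0.16) and NOP10 (0.13) rose while NOP58 fell by 0.16 (limma). GAS5, a snoRNA host with another kind of symbol that was picked after its values were seen, was at 0.18 in TC71 and fell by 0.41 in TC32 (adjusted p = 0.00329, limma).

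By the brightest probe set of each gene, the largest rises were those of antisense and divergent genes. DPH5-DT starts head to head with DPH5, an enzyme of diphthamide synthesis. It had 9.37, 9.34 and 9.38 with mithramycin in TC71, against 8.71, 8.56 and 8.58 in controls. Its TC32 values were 7.85, 7.96 and 7.92 with mithramycin, against 6.47, 6.58 and 6.85 in controls. Every treated array was above every control of its line, and the rise was 0.75 ± 0.09 in TC71 (adjusted p = 2.64e-05) and 1.28 ± 0.09 in TC32 (adjusted p = 2.01e-07; limma). This value rests on a set ending in _s_at, the mark of probes shared by several transcripts, and the other sets, with means of 5.67 and 4.99, gave -0.23 and -0.13 in TC71 and 0.19 and 0.18 in TC32.

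PAX8-AS1, antisense to the thyroid and kidney transcription factor gene PAX8, had 7.78, 7.73 and 7.76 with mithramycin in TC71, against 6.90, 6.96 and 7.06 in controls. In TC32 it had 7.60, 7.67 and 7.56 with mithramycin, against 6.66, 6.63 and 6.75 in controls. The rises of 0.78 ± 0.06 and 0.93 ± 0.06 passed the test in both lines (adjusted p = 7.06e-07 and 1.22e-07, limma). A dimmer probe set of the gene, with a mean of 5.66, fell by 0.42 in the line average.

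PAXIP1-DT lies beside PAXIP1, whose protein joins histone methyltransferase complexes and the DNA damage response. It had 8.44, 8.43 and 8.38 with mithramycin in TC71, against 7.43, 7.36 and 7.36 in controls, a rise of 1.04 ± 0.08 (adjusted p = 1.53e-06, limma). Its TC32 values were 7.33, 7.48 and 7.16 with mithramycin, against 6.53, 6.72 and 6.80 in controls, a rise of 0.64 ± 0.08 (adjusted p = 7.23e-05). It was the only one of the 68 that rose by at least 1 in TC71.

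MAPKAPK5-AS1, antisense to a stress-activated kinase gene, was at 8.10, 8.06 and 8.08 with mithramycin in TC71, against 7.39, 7.32 and 7.27 in controls. In TC32 it was at 7.85, 7.80 and 7.80 with mithramycin, against 6.94 on each control array. It rose by 0.75 ± 0.05 in TC71 and 0.87 ± 0.05 in TC32 (adjusted p = 2.4e-07 and 5.02e-08, limma), and its 4 probe sets gave 0.81, 0.19, 0.92 and 0.04 in the line average. GABPB1-AS1, antisense to the gene of a subunit of the ETS-family factor GABP, had 8.59, 8.41 and 8.61 with mithramycin in TC71, against 8.01, 7.80 and 7.86 in controls. In TC32 it had 8.16, 7.92 and 8.02 with mithramycin, against 7.15, 6.98 and 7.28 in controls. It rose by 0.64 ± 0.09 and 0.90 ± 0.09, and all 6 of its probe sets rose in the line average, by 0.53 to 0.99.

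ZNF143-AS1 starts head to head with ZNF143, a zinc finger activator of snRNA and coding genes. It had 7.49, 7.54 and 7.58 with mithramycin in TC71, against 6.48, 6.59 and 6.61 in controls. Its TC32 values were 6.90, 7.05 and 6.77 with mithramycin, against 6.52, 6.50 and 6.58 in controls. The groups did not overlap, with rises of 0.98 ± 0.07 in TC71 (adjusted p = 6.45e-07) and 0.37 ± 0.07 in TC32 (adjusted p = 0.00123; limma).

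By class, 22 of the 31 antisense genes among the 68 rose and 3 fell in the line average, and 9 of 12 divergent genes rose and 2 fell, beside 37.6% and 33.2% of the 7235 genes. Of the 21 intergenic genes, 13 rose and 4 fell, and the single intronic gene, NPTN-IT1, was at 0.03. The medians were 0.24, 0.32 and 0.26 for the antisense, divergent and intergenic classes, whereas all 3 SNHG genes fell.

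**Figure D2:**
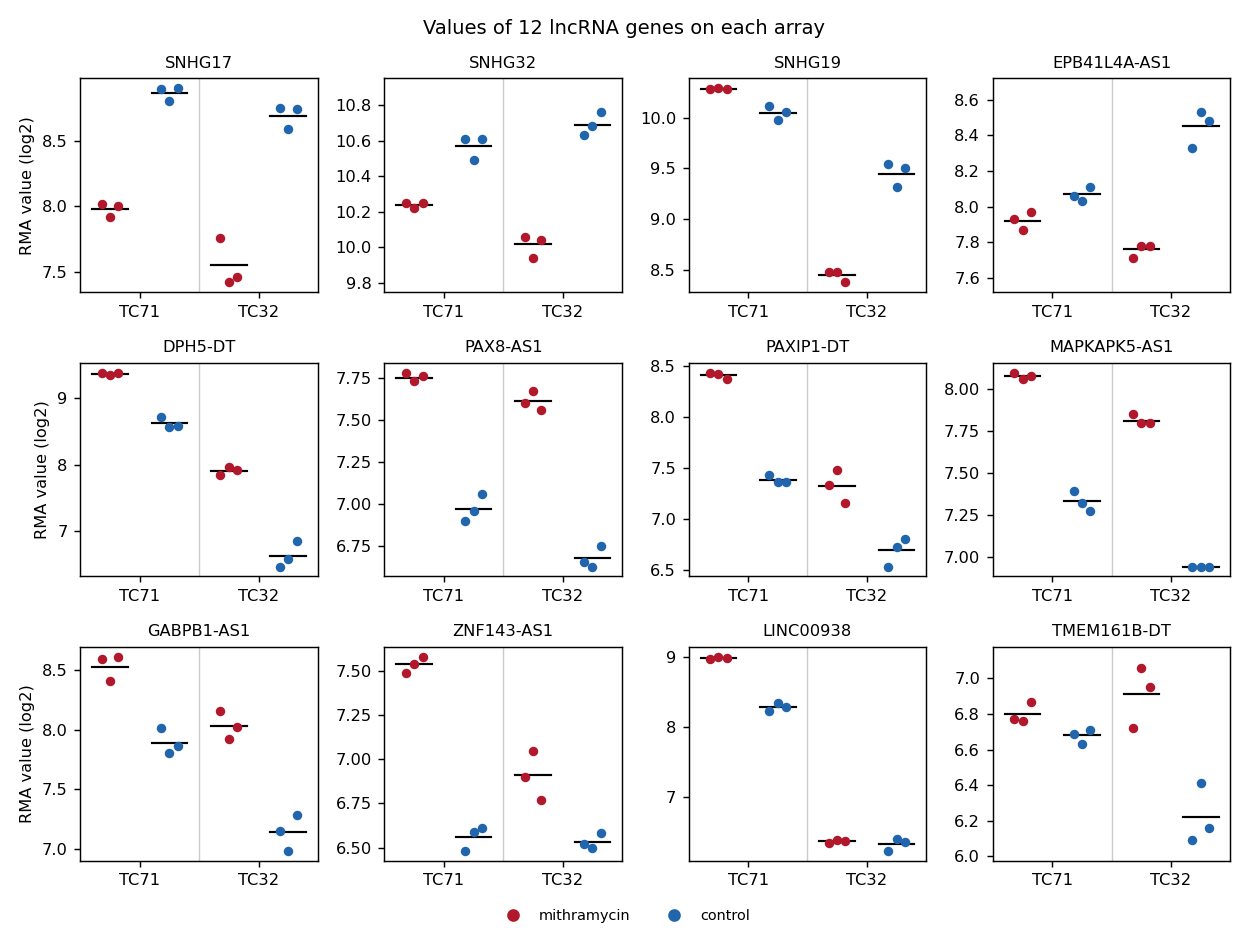
RMA values (y axis, log2, scaled to each gene) of 12 lncRNA genes on each array, mithramycin in red beside control in blue for TC71 and TC32. Points are arrays, 3 per group, and lines are group means. SNHG17 and SNHG32 are lower with mithramycin in both lines, SNHG19 is lower in TC32 only, and the arrays of PAX8-AS1 and MAPKAPK5-AS1 with mithramycin lie above all controls of their line.

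Among the intergenic genes the largest rises were smaller when each gene was read by its brightest probe set. This ranking depends on that choice. A dimmer set of LINC01128, with a mean of 6.59, rose by 1.27 in the line average, while its brightest set, with a mean of 6.79, fell by 0.25. A dimmer set of LINC00342, with a mean of 7.02, rose by 0.81, beside 0.39 for its brightest. Both dimmer sets were picked after their values were seen. LINC02987 had 6.57, 6.57 and 6.68 with mithramycin in TC71, against 6.12, 6.22 and 6.34 in controls. In TC32 it had 7.14, 7.29 and 7.34 with mithramycin, against 6.50, 6.51 and 6.36 in controls, and it rose by 0.38 ± 0.07 in TC71 and 0.80 ± 0.07 in TC32 (adjusted p = 0.00171 and 3.42e-06, limma). LINC00960 rose by 0.54 ± 0.08 and 0.55 ± 0.08 (adjusted p = 2.19e-04 and 1.46e-04), with 7.47, 7.44 and 7.44 in treated TC71 cells, against 6.88, 6.86 and 6.99 in controls. The rises of LINC02987 and LINC00960 rest on their brightest probe set: the other set of LINC02987 gave 0.1 and -0.26, and another set of LINC00960 gave 0.13 and -0.18.

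Outside the SNHG class, 4 of 21 intergenic, 3 of 31 antisense and 2 of 12 divergent genes fell in the line average, beside 33.2% of the 7235 genes. LINC00294 fell by 0.54 ± 0.07 in TC32, with 6.75, 6.84 and 6.84 with mithramycin, against 7.34, 7.26 and 7.44 in controls (adjusted p = 5.7e-05, limma), while its TC71 fall of 0.19 was at the limit (adjusted p = 0.0493). LINC01000 had 6.57, 6.66 and 6.71 with mithramycin in TC71, against 7.05, 7.21 and 7.08 in controls, and fell there by 0.47 ± 0.09 (adjusted p = 0.00136). Its TC32 groups overlapped, and its dimmer probe set gave -0.09 in TC71. RAB30-DT, beside the gene of a Golgi small GTPase, fell by 0.27 ± 0.06 in TC71 and 0.35 ± 0.06 in TC32 (adjusted p = 0.00663 and 8.73e-04). ZNF407-AS1 fell by 0.65 ± 0.08 in TC32 (adjusted p = 2.33e-05) and was at -0.20 in TC71 (adjusted p = 0.057), where its arrays read 7.91, 7.83 and 7.93 with mithramycin, against 8.06, 8.08 and 8.13 in controls.

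Of the 68 genes, 21 rose in both lines and 5 fell in both, 10 rose in TC71 only and 13 in TC32 only, 1 fell in TC71 only and 6 in TC32 only. SNHG19 alone rose in TC71 and fell in TC32, and 11 genes passed in neither line. Shares of the 7235 genes in these categories were not computed, so these counts do not set the 68 apart. Across the 68 genes the TC71 and TC32 changes correlated at 0.72, and across the 7235 genes at 0.84. These are descriptions over genes that share the same arrays.

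The difference of the changes, TC71 minus TC32, was itself tested. It was positive for 12 of the 68 genes and negative for 4, beside 9.21% and 3.91% of the 7235 genes. The count of 12 dropped to 6 without TC32 control replicate 3, beside 7.06% of the 7235 genes. It dropped to 7 without TC71 mithramycin replicate 3 (beside 7.06%) and to 8 without TC71 control replicate 1 (beside 6.86%). With the beta-actin gap as a covariate it was 7, beside 5.58%. The count of 4 dropped to 2 without TC32 control replicate 3 (beside 2.4%), TC71 mithramycin replicate 1 (2.68%) or TC71 control replicate 3 (2.29%). With that covariate it was 1, beside 1.59%. The largest difference was that of SNHG19, 1.24 ± 0.09 (adjusted p = 1.14e-05, limma). LINC00938 followed with 0.66 ± 0.08 (adjusted p = 2.38e-04): it had 8.97, 9.0 and 8.98 with mithramycin in TC71, against 8.23, 8.34 and 8.28 in controls. Its TC32 values were 6.34, 6.39 and 6.38 with mithramycin, against 6.23, 6.40 and 6.36 in controls, and these groups overlapped.

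ZNF143-AS1 had a difference of 0.61 ± 0.10 (adjusted p = 0.00254), and EPB41L4A-AS1 of 0.54 ± 0.09 (adjusted p = 0.00194; limma). The negative ones were led by TMEM161B-DT, at -0.57 ± 0.13 (adjusted p = 0.0201), and DPH5-DT, at -0.53 ± 0.12 (adjusted p = 0.0156). TMEM161B-DT had 6.77, 6.76 and 6.87 with mithramycin in TC71, against 6.69, 6.63 and 6.71 in controls. Its TC32 arrays were at 6.72, 7.06 and 6.95 with mithramycin, against 6.09, 6.41 and 6.16 in controls, a rise of 0.69 ± 0.10. Another of its probe sets, with a mean of 5.73, was at -0.27 in TC32 and fell by 0.24 in the line average.

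**Figure D3:**
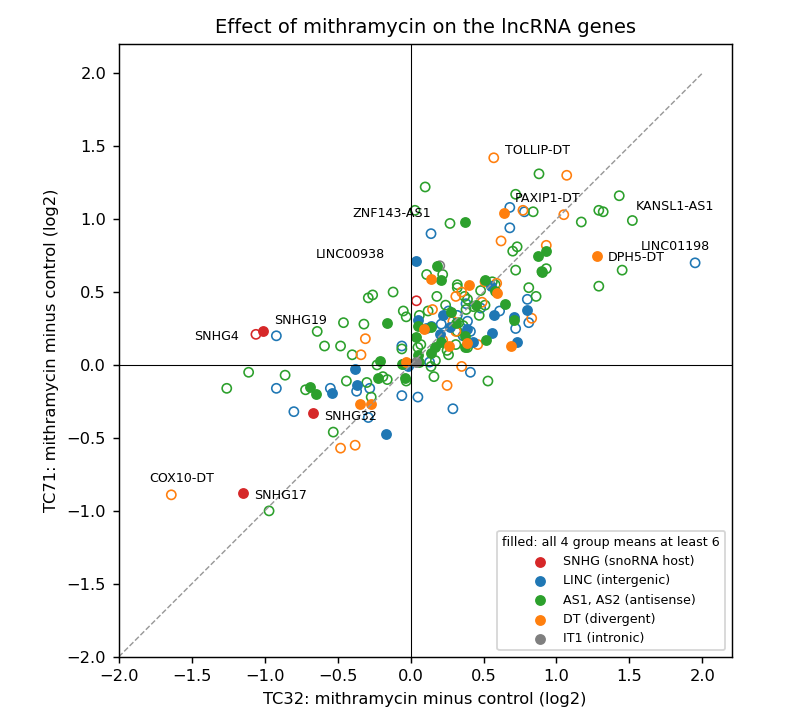
Change with mithramycin (log2) in TC32 (x axis) and in TC71 (y axis) for the 201 lncRNA genes, coloured by class. Filled points are the 68 genes with all 4 group means of at least 6, open points the other 133, and the dashed line marks equal change. SNHG19 (0.23 in TC71, -1.01 in TC32) and SNHG4 lie above zero in TC71 and below zero in TC32.

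Genes named for a neighbour can be set beside it. The partner of 136 of the 201 genes was measured, and 85 partners had all 4 group means of at least 6. In 29 of these pairs the lncRNA gene also had all 4 means of at least 6. Of those 29 partners, 12 rose and 11 fell in the line average, beside 37.6% and 33.2% of the 7235 genes. The partners had a median of 0.05, and the lncRNA genes beside them had a median of 0.32. The lncRNA gene rose and the partner fell in 9 pairs and both rose in 11. In 0 pairs did both fall or did the lncRNA gene fall and the partner rise. More of the tested lncRNA genes rose than fell, so these counts alone do not show a link within pairs. Such a link was not tested. By sign alone, both changes were positive in 14 of the 29, the lncRNA gene positive and the partner negative in 12, and the reverse in 3. The changes of lncRNA gene and partner correlated at -0.1 across the 29, a description with pairs measured on the same arrays. The other 56 pairs hold lncRNA genes that reached 6 in some groups only and are not counted.

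ZNF143 had 6.84, 6.83 and 6.89 with mithramycin in TC71, against 7.70, 7.75 and 7.70 in controls. It fell by 0.86 ± 0.07 in TC71 and 1.03 ± 0.07 in TC32 (adjusted p = 1.34e-06 and 2.15e-07, limma), while ZNF143-AS1 rose in both lines. TMEM161B fell by 0.81 ± 0.07 and 1.22 ± 0.07 beside a divergent transcript that rose in TC32. DPH5 was nearly level beside DPH5-DT, with falls of 0.16 ± 0.05 and 0.17 ± 0.05 (adjusted p = 0.0278 and 0.0178).

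PAXIP1 fell by 0.39 ± 0.06 in TC71 and 0.35 ± 0.06 in TC32, MAPKAPK5 fell by 0.38 ± 0.06 and 0.52 ± 0.06, and GABPB1 fell by 0.47 ± 0.07 in TC32, each beside an lncRNA gene that rose. PAX8 rose by 0.19 ± 0.06 in the line average (adjusted p = 0.0198, limma), the direction of PAX8-AS1. ZNF407 fell by 2.21 ± 0.09 in TC71 and fell by 1.58 ± 0.09 in TC32 beside ZNF407-AS1, but its treated means were under 6. RAB30, also under 6 in some groups, rose by 0.67 ± 0.11 in TC32 where RAB30-DT fell. WAC, an adaptor of histone H2B ubiquitination, fell by 0.90 ± 0.05 and 1.56 ± 0.05 beside WAC-AS1, which was at 0.07 and 0.05 and did not pass the test; this pair was chosen after its values were seen.

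Whether the probes of each pair separate the strands was not tested, and no probe sequence was used here.

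**Figure D4:**
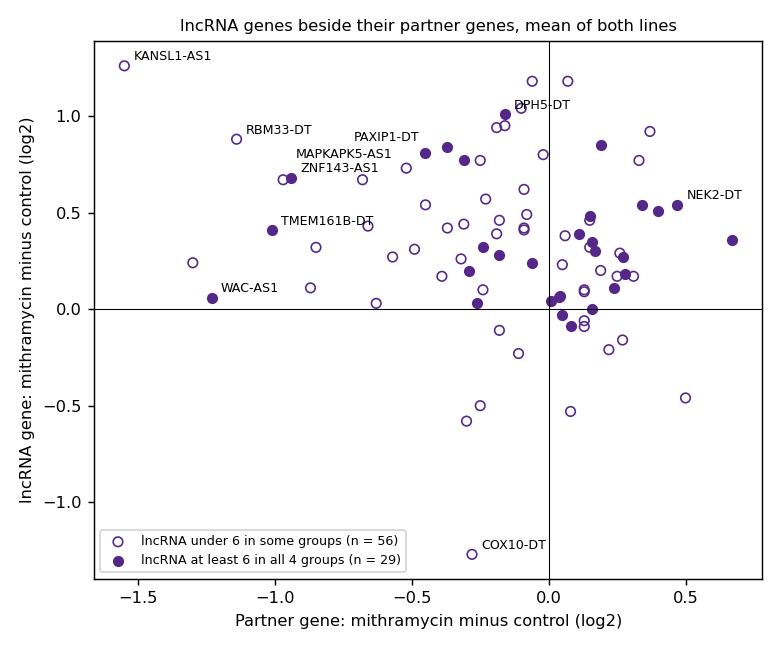
Change with mithramycin (log2, line average) of the partner gene (x axis) and of the lncRNA gene named for it (y axis) in 85 pairs whose partner had all 4 group means of at least 6. Filled points are the 29 pairs whose lncRNA gene also did. Of the filled points, 14 lie in the upper right, with both changes positive, and 12 in the upper left, with the lncRNA gene positive and the partner negative, ZNF143-AS1 among them.

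The other 133 genes reached 6 in TC71 groups only (77), in TC32 groups only (22) or in groups of both lines (34). Of them, 36 reached it only with mithramycin and 11 only in controls, which the threshold itself can bring about. Changes were positive in both lines for 85, negative in both for 22, positive in TC71 and negative in TC32 for 18 and the reverse for 8. Since levels chose these genes, the counts support nothing and no test is given.

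LINC01198 had the largest change among them in TC32, with 4.54, 4.48 and 4.91 in TC71 with mithramycin, against 3.87, 3.87 and 4.11 in controls, and 6.30, 6.53 and 6.17 in TC32 with mithramycin, against 4.34, 4.50 and 4.32 in controls. The differences were 0.70 and 1.95. COX10-DT, beside a gene of haem A synthesis, lay lower, with 4.05, 4.21 and 4.26 in TC71 with mithramycin, against 4.9, 5.11 and 5.19 in controls, and 4.54, 4.45 and 4.70 in TC32 with mithramycin, against 6.29, 6.11 and 6.22 in controls. Its treated arrays were under every control of their line, at -0.89 and -1.64.

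KANSL1-AS1, antisense to a subunit of a histone acetyltransferase complex, had 7.48, 7.51 and 7.58 in TC71 with mithramycin, against 6.61, 6.47 and 6.53 in controls. In TC32 it had 5.81, 5.88 and 5.76 with mithramycin, against 4.22, 4.28 and 4.37 in controls. Its partner KANSL1 fell by 1.51 ± 0.07 in TC71 and fell by 1.58 ± 0.07 in TC32 (adjusted p = 1.14e-08 and 5.17e-09, limma), with treated arrays between 6.89 and 7.38. RAB11B-AS1 (0.65 in TC71, 1.45 in TC32), PDCD4-AS1 (1.16 and 1.43) and TOLLIP-DT (1.42 and 0.57) also lay higher, with no overlap of treated and control arrays in either line.

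Levels in control cells differed widely between the lines. Of the 68 genes, 39 were higher and 11 lower in TC71 controls than in TC32 controls (adjusted p under 0.05), beside 40.9% and 35% of the 7235 genes, and with centring on housekeeping genes 48 were higher and 5 lower, beside 55.9% and 22.3%. Their median difference was 0.32, beside 0.04 for the 7235. The largest was that of LINC00623, at 9.66, 9.51 and 9.71 in TC71 controls, against 6.45, 5.89 and 5.85 in TC32 controls (3.56 ± 0.15, adjusted p = 5.79e-10, limma). ITGB2-AS1 was the furthest the other way, at 7.90, 7.86 and 7.89 in TC71 controls, against 9.12, 8.90 and 9.09 in TC32 controls; both genes were picked as the extremes after their values were seen, and both rest on probe sets ending in _x_at or _s_at.

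The 6 genes with the highest single group mean among the 133 had different levels in the lines, which are given without a test. Each was chosen for a high mean in 1 group and has a mean under 6 in another. A gap between groups was thus built in by the choice and supports nothing. ZNF232-AS1 averaged 9.34 ± 0.04 in TC71 controls and 5.50 ± 0.08 in TC32 controls (SD, n = 3 each), and C2orf74-DT averaged 9.20 and 6.09 in the same groups. LINC01116 was at 8.12 and 5.03, LINC01003 at 7.28 and 5.95, and ZSCAN16-AS1 at 7.60 and 5.39. TBX5-AS1 was the reverse, with 4.0 in TC71 controls and 8.38 in TC32 controls. TBX5, the heart and limb transcription factor gene beside it, had 3.25, 3.00 and 3.42 in TC71 controls, against 9.94, 10.20 and 10.06 in TC32 controls, and fell by 1.22 ± 0.16 with mithramycin in TC32 (adjusted p = 8.12e-05, limma).

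Of these, LINC01003 lay higher with mithramycin, by 1.08 in TC71 and 0.68 in TC32, and ZSCAN16-AS1 by 1.05 and 1.32. ZNF232-AS1 (0.23 and 0.32) and LINC01116 (0.23 and 0.41) differed less. C2orf74-DT (0.07 and -0.34) and TBX5-AS1 (0.28 and -0.32) had opposite signs in the lines.

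**Figure D5:**
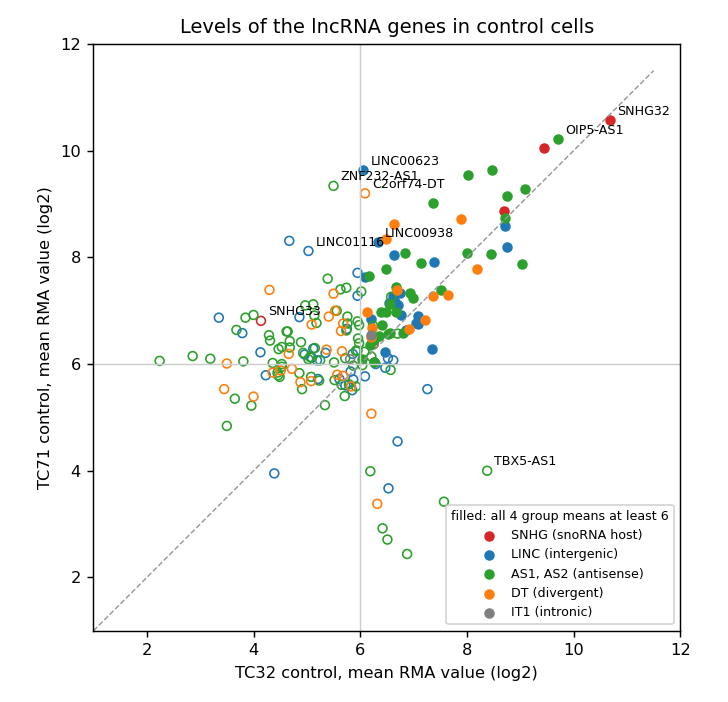
Mean RMA value (log2) of the 201 lncRNA genes in TC32 controls (x axis) and TC71 controls (y axis), coloured by class, with filled points for the 68 genes with all 4 group means of at least 6. The dashed line marks equal level and grey lines mark 6. LINC00623 and ZNF232-AS1 stand far above the line and TBX5-AS1 far below it.

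Of 38 listed lncRNA genes with other kinds of symbol, 31 were measured, and 11 rose and 7 fell in the line average, with a median of 0.02. These shares are near the 32.9% and 20.9% of all 19775 genes. Of the 12 with all 4 means of at least 6, 4 rose and 4 fell, beside 37.6% and 33.2% of the 7235 genes. The microRNA hosts MIRLET7BHG, with all group means under 6, and DLEU2 fell by 0.92 ± 0.09 and 0.67 ± 0.05. HCG18, of the HLA region, fell by 0.70 ± 0.04 (adjusted p = 2.72e-08, limma). TP53TG1, named as a p53 target, rose by 0.50 ± 0.06. EWSAT1, a transcript induced by the fusion protein, fell by 0.34 ± 0.11 in TC71 and 0.60 ± 0.11 in TC32, with all group means under 6. MALAT1, a nuclear transcript at 12.44 with mithramycin and 12.41 in controls in TC71, was at 0.04 and 0.12 and did not pass the test; both genes were picked after their values were seen.

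Factors of RNA decay were examined as lists. Of 10 NMD factors, 6 were measured, and 5 fell and 1 rose in the line average, beside 20.9% and 32.9% of all 19775 genes. Of the 5 with all 4 means of at least 6, 4 fell and 1 rose, beside 33.2% and 37.6% of the 7235 genes. The helicase UPF1 fell by 0.57 ± 0.05 and UPF2 fell by 0.98 ± 0.04. The endonuclease SMG6 fell by 1.0 ± 0.08, with group means of only 4.82 to 5.93. SMG8, which restrains the UPF1 kinase SMG1, rose by 0.91 ± 0.04 (adjusted p of these genes between 2.38e-09 and 1.34e-06, limma). Of 19 factors of the nuclear exosome and its adaptors, 5 rose and 10 fell, beside 37.6% and 33.2% of the 7235 genes, with EXOSC3 of the exosome cap at -0.71 ± 0.04 and ZCCHC8 of the NEXT adaptor at -0.63 ± 0.03. ZCCHC7, of the TRAMP adaptor, fell by 1.05 ± 0.07, and PABPN1, a nuclear poly(A)-binding protein, rose by 1.32 ± 0.08 (adjusted p = 3.52e-08). The part of these factors in the lncRNA levels was not tested.

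RefSeq promoters of 300 bases were matched for 164 of the 201 genes, and 61.0% of them held GGGCGG on either strand, beside 45% of 35116 promoters in the table. Among genes with all 4 means of at least 6, 57.9% of 57 lncRNA promoters and 72.5% of 6112 promoters held it. Of 37 promoters of lncRNA genes that rose in the line average 64.9% held it, and of 9 promoters of those that fell 44.4% did. Median GC contents were 62.3% and 57.0% for these, 62.0% for the 57 and 65.3% for the 6112. These shares describe the letters in the windows and were not tested.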

How the data were processed

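RNA of 12 samples was measured on 1-colour oligonucleotide arrays. The deposited values are log2 signals, 1 per probe set and array, made by RMA per the submitters' processing notes (its version is not known here). It equalises probe distributions between arrays, so changes are relative to other genes on the array. The number of arrays limits the precision.

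Of 54675 probe sets, 41091 have 1 symbol in the platform annotation, 1801 several (not used) and 11721 none. Each of 19775 genes is represented by the brightest of its probe sets (mean of 12 arrays). Groups come from the labels, and replicates are labelled as biological. A linear model with 4 group means was fitted in R 4.3.3 by limma 3.58.1, with moderated variances, giving two-sided p-values with Benjamini-Hochberg adjustment over 19775 genes and a limit of 0.05. It was tested on simulated data. Summaries used Python 3.11.15 and pandas 2.3.3. Errors of changes are standard errors.

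Named genes are the 8 largest rises and 8 largest falls in the mean of both lines among the 68, every SNHG gene, the 6 largest differences of changes, 6 genes by level and 6 by change among the 133, and up to 4 genes of each list by size of called change. The members and lists were chosen with earlier results of these data known. Alternatives tried were other probe set rules, scalings, models, membership rules and leaving out each array.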

Additional observations from a re-analysis of the deposited data

Results flagged for a closer look

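For 10 of the genes named above, the change with mithramycin differed between the lines by the test of that difference (TC71 change minus TC32 change, limma, adjusted over all genes). SNHG19 led with 1.24, from 0.23 in TC71 and -1.01 in TC32. LINC00938 (0.66), ZNF143-AS1 (0.61), EPB41L4A-AS1 (0.54), ZNF407-AS1 (0.45), SNHG32 (0.35) and LINC00294 (0.34) also had more positive changes in TC71. TMEM161B-DT (-0.57), DPH5-DT (-0.53) and LINC02987 (-0.42) had more positive changes in TC32. Adjusted p lay between 1.14e-05 for SNHG19 and 0.0469 for LINC00294. Single outlying values were not tested within groups of 3 arrays. Counts without each array in turn are given with the processing alternatives.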

How the results depend on the processing

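Counts are of genes that rose or fell, with shares of the 7235 genes under the same setting in brackets where computed. Centring on housekeeping genes gave 20 and 13 in TC71 (10% and 41.8%) and 27 rises in the mean of both lines (16.6%). It left 5 genes lower in TC71 controls (22.3%). Centring on hybridisation controls gave 2 falls in TC71 (15.8%), 18 rises in TC32 (7.08%) and 0 negative differences of changes (0.318%). With the beta-actin covariate 3 fell in TC71 (19.9%), and 7 differences were positive (5.58%) and 1 negative (1.59%). Negative differences numbered 2 with the mean of probe sets (2.9%). They numbered 7 when only genes with a mean of at least 6 were tested (8.39%). With membership at any group mean of at least 7, 59 rose in TC71 and 53 in TC32, 19 differences were positive and 68 genes were higher in TC71 controls. With membership at a mean over the 12 arrays of at least 6, 64 rose in TC71, 59 rose and 27 fell in TC32, 73 rose and 20 fell in the mean, 26 differences were positive and 9 negative, and 74 genes were higher and 18 lower in TC71 controls. Those memberships hold other and more genes, including genes with some group means under 6 that were chosen by their levels. Their counts therefore support nothing, and no share over all genes was computed beside them.

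Leaving out 1 array at a time gave 27 to 36 rises and 5 to 6 falls in TC71, 28 to 33 and 11 to 13 in TC32, 41 to 44 and 12 in the mean, 36 to 41 higher and 10 to 13 lower in TC71 controls, and 6 to 12 positive and 2 to 5 negative differences. Over the 7235 genes the same fits gave 21.9% to 29.3% rises and 22.8% to 27.2% falls in TC71. They gave 27.9% to 31.7% and 28.2% to 32.6% in TC32, and 34.9% to 37.4% and 31.7% to 34.7% in the mean. In TC71 controls 38.6% to 41.7% were higher and 32.8% to 35.7% lower, and 6.54% to 10.4% of differences were positive and 2.24% to 4.35% negative. Without TC32 control replicate 3 the differences of the lncRNA genes numbered 6 and 2, beside 7.06% and 2.4% of the 7235 genes. Named genes reversed in 3 cases: LINC00960 in TC32 was at -0.01 with the mean of probe sets, and DPH5-DT in TC71 at -0.23 and LINC02987 in TC32 at -0.26 without _x_at and _s_at sets. Of the other values of named genes, 778 kept their call status, 18 gained a call and 25 lost it. The 778 can include values whose sign changed while neither fit passed the test.

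Correlations of the deviations of same-numbered arrays were -0.143, 0.122 and -0.068 in TC71 and 0.09, 0.363 and 0.059 in TC32. Arrays with other numbers gave -0.136 to 0.189 in TC71 and -0.351 to 0.316 in TC32. Whether equal numbers mark pairs was not tested. With the replicate block 33 rose and 5 fell in TC71, beside 25.2% and 25% of the 7235 genes. In TC32 32 rose and 12 fell, beside 30.6% and 30.3%, and in the mean 45 and 12, beside 36.5% and 32.7%. With this block 9 differences were positive and 4 negative, beside 6.76% and 2.57%. The cause of these shifts was not tested. Detection calls were not used here, so signal over background is unknown.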
